A study of Mus musculus with 22 samples.

Results

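The complement genes described here are 9 genes chosen by name from the 55487 genes counted in mouse brown adipose tissue (BAT). They are the C1q chains *C1qa*, *C1qb* and *C1qc*, the C1 proteases *C1ra* and *C1s1*, the convertase components *C2*, *C4b* and *Cfb*, and the central component *C3*. Complement is a cascade of blood and tissue proteins. In the classical pathway, C1q binds antibody or altered cells, its attached proteases C1r and C1s cleave C4 and C2, and the resulting enzyme cleaves C3. In the alternative pathway, factor B, encoded by *Cfb*, binds activated C3 and is cut by factor D, an enzyme that fat cells secrete in large amounts and that is also named adipsin. Tissue macrophages are the best known source of C1q, whereas liver, fibroblasts and adipocytes are among the sources of *C3*.

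The study compared BAT of mice lacking CPEB2, an RNA-binding protein that regulates translation, with BAT of wild-type (WT) controls on a C57BL/6 background, and asked what the transcription regulator PRDM16 does when supplied to it. RNA-seq was run on 22 libraries in 6 groups. The untreated groups were 5 CPEB2-WT and 5 CPEB2-KO mice of 21 to 25 weeks. Per the paper, these mice were deprived of food for some hours before BAT was collected, a step it does not state for the AAV mice. The adeno-associated virus (AAV) groups were 3 CPEB2-WT and 3 CPEB2-KO mice given AAV-GFP and 3 of each genotype given AAV-PRDM16.

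All mice were labelled male and fed a chow with 9% fat. The knockout is present in every tissue, not in brown adipocytes alone, and WT and KO mice came from heterozygous crosses. The AAV mice were injected at 16 weeks of age in the interscapular BAT with 2e10 vector genomes in 30 µl, and BAT was collected 9 weeks later. The vector carried flag-tagged mouse PRDM16 or GFP in AAV2/8 particles, and the cell types it entered cannot be told from bulk tissue. AAV-GFP mice are the control for AAV-PRDM16, so that no group received vehicle alone.

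Total counts ran from 55320927 to 162721202 in the untreated libraries and from 61636889 to 143005309 in the AAV libraries. *Cpeb2*, the targeted gene, was at 10.5 to 14.0 CPM (read counts scaled to a common library size) in the AAV libraries labelled WT and at 4.33 to 5.55 CPM in those labelled KO. In the untreated cohort it was at 7.69 to 14.3 CPM in the libraries labelled WT, at 2.10 to 5.78 CPM in 4 libraries labelled KO and at 11.7 CPM in the library labelled KO 1, within the WT range. In 6 of the 10 untreated libraries (WT 3 and 5, KO 1, 3, 4 and 5) Y-linked transcripts summed to at most 1.16 CPM although the mice were labelled male. *Xist*, the X-inactivation transcript of females, was at 104 to 305 CPM in those libraries and at most 14.0 CPM in the other untreated ones. WT 4 held both, with *Xist* at 14.0 CPM and Y-linked transcripts at 116 CPM. KO 2 also held both, with *Xist* at 1.65 CPM and Y-linked transcripts at 77.0 CPM. In WT 1 and WT 2 *Xist* was at 0.0876 and 0.0310 CPM, with Y-linked transcripts at 193 and 191 CPM. More KO than WT libraries held few Y-linked transcripts, so genotype and these sex-linked signals are partly mixed in untreated comparisons. Libraries were compared within each group by the median chi-square per gene of each pair. It was 12.6 between WT 1 and WT 2, and 40.9 to 60.8 between either of them and the other WT libraries. Among the KO libraries it ran from 12.8 for KO 3 and KO 4 to 97.8 for KO 2 and KO 5. The 10 brown fat markers examined summed to 3988 to 13838 CPM over the 22 libraries. *Prdm16* counts, in which the viral coding sequence and the mouse gene are not separated, were 23.9 to 40.2 CPM with AAV-GFP and 45.8 to 128 CPM with AAV-PRDM16.

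All 9 genes were detected in every library, the lowest value being 46 counts for *C2*, and all passed the filter on low counts in both cohorts. CPM per kilobase of exon allows a rough comparison of levels between genes. The length is that of all annotated exons of a gene, not of the transcripts expressed, and is 1931 bases for *C1qc* and 1040 for *C1qa*. On this scale *C3* was the highest of the 9, with a mean of 94.3 over the 22 libraries. *C1qb* followed at 14.8, *C1qa* at 14.5, *C1s1* at 10.2 and *C1qc* at 6.08 CPM per kilobase. *C1ra* at 2.64, *C4b* at 2.48 and *Cfb* at 2.30 CPM per kilobase lay close together, and *C2* was lowest at 0.326. Among all 50 complement genes examined, *Cfd*, the gene of factor D, was highest, with 711.5 CPM per kilobase. That mean came mostly from the untreated groups, at 848 in WT and 1951 in KO, against 120 to 168 in the AAV groups. In WT + AAV-PRDM16 *Cfd* was at 120 and *C3* at 125 CPM per kilobase. Regulators and relatives also stood among the leading genes: *Cd59a*, a membrane inhibitor of the terminal complex, at 52.4, *Serping1*, the C1 inhibitor, at 8.11, and *C1rl*, a relative of C1r, at 6.13 CPM per kilobase.

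**Figure D1:**
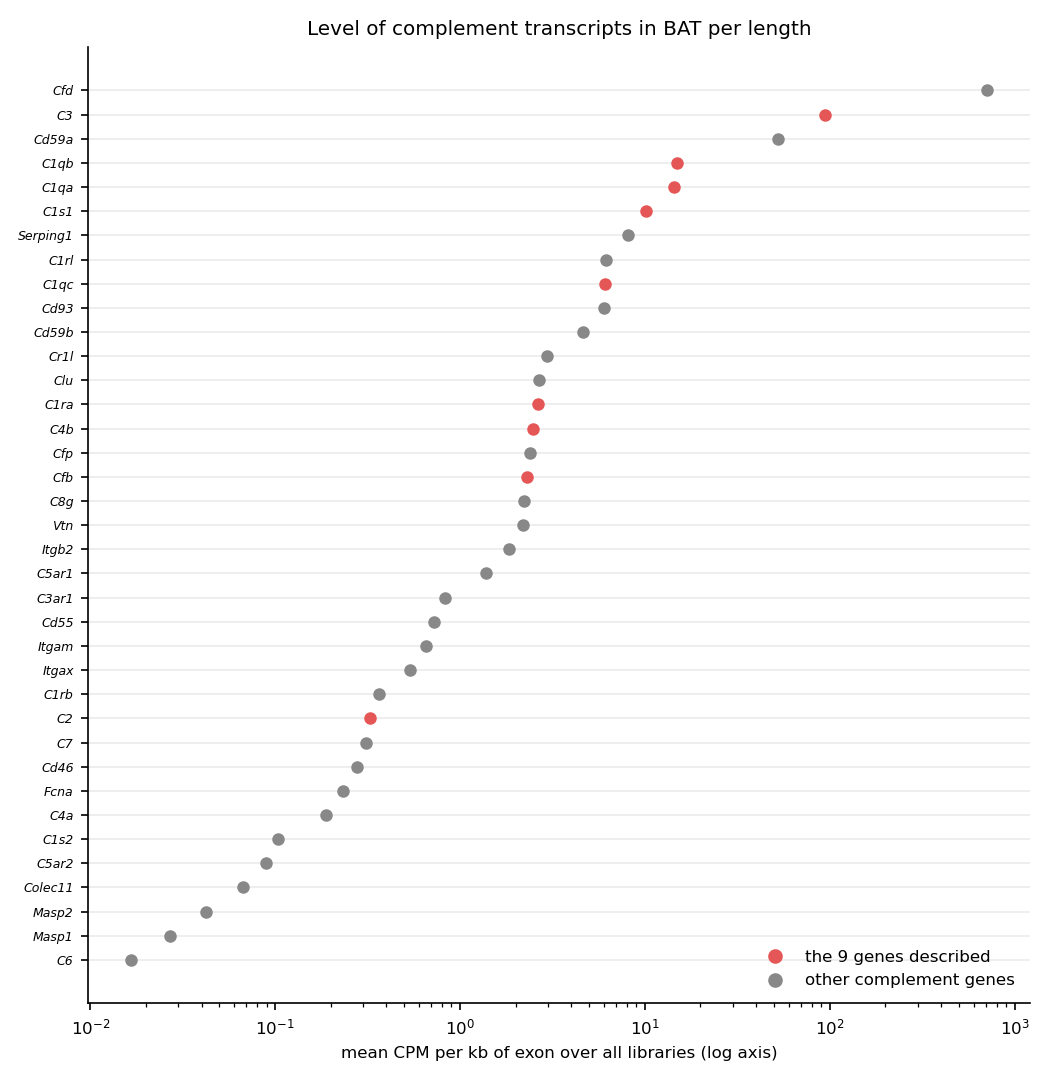
Mean level of each complement gene over 22 BAT libraries, in CPM per kilobase of exon on a log axis, with the 9 genes described in red and other complement genes in grey, for genes at 0.01 or more. *Cfd* is highest at 711.5, *C3* is next at 94.3 and *C2* is the lowest of the red points at 0.326.

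Each comparison was fitted across all genes with edgeR's quasi-likelihood test, separately for the untreated cohort and the AAV cohort, and p-values were adjusted by Benjamini-Hochberg over every gene tested. A gene is called where the adjusted p is under 0.05. Where libraries of different groups are said not to overlap, the share of all genes that separated in this way was not counted. Such a separation is a description and not a test. The tests of *C1qa*, *C1qb* and *C1qc* come first, following the order of the classical pathway.

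*C1qa*, *C1qb* and *C1qc* encode the chains that assemble into the C1q molecule. They lie side by side on the minus strand of chromosome 4 (GRCm38, GENCODE M21), *C1qb* at 136880129 to 136886187, *C1qc* at 136889804 to 136893065 and *C1qa* at 136895917 to 136898803. The bases before 2 of their transcription starts are shown because these genes kept close to one another in level over the 22 libraries. They were taken from RefSeq promoter windows (GRCm38.p6, minus strand, 250 bases before the start), leaving out bases inside the annotated gene. Capitals mark GAGGAA on either strand, a core letter pattern of ETS factors such as the myeloid regulator PU.1.
*C1qb*, chr4:136886201-136886450: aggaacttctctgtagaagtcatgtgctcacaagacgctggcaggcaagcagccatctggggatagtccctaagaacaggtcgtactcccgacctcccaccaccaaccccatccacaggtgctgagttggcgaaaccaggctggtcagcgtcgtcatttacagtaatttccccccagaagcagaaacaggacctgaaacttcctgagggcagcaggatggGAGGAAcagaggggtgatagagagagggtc
*C1qc*, chr4:136893066-136893164: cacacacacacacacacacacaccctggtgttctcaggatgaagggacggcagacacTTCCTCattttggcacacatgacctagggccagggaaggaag
The pattern lay 30 bases before the RefSeq start of *C1qb* and, on the other strand, 193 bases before that of *C1qc*, a start that lies inside the GENCODE gene. Of 32851 mouse promoter windows of the same length, 23.3% held it. Windows were given for 5 of the 9 genes. *C1qa*, *C2*, *C4b* and *Cfb* are named only.

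In the untreated cohort *C1qa* was at 5.74, 4.96, 16.9, 26.1 and 9.84 CPM in WT mice 1 to 5 and at 39.4, 31.4, 13.4, 12.6 and 23.9 CPM in the libraries labelled KO 1 to 5. *C1qb* was at 5.13, 5.51, 14.9, 29.2 and 9.06 CPM in WT and at 56.3, 41.6, 10.1, 13.5 and 24.8 CPM in KO. *C1qc* was at 2.84, 2.99, 11.7, 21.96 and 7.16 CPM in WT and at 35.6, 29.5, 9.77, 9.01 and 19.9 CPM in KO. KO 1 and KO 2 were highest and WT 1 and WT 2 lowest for each of these chains, and the genotypes overlapped. In bulk tissue, fewer cells of a type and less RNA per cell cannot be told apart. The log2 difference, KO minus WT, was 0.93 ± 0.48 (SE, n = 5 per group) for *C1qa* with an edgeR adjusted p of 0.338. It was 1.20 ± 0.56 for *C1qb* with an edgeR adjusted p of 0.316, and 1.15 ± 0.58 for *C1qc* with 0.330. None of the 3 was called. The differences rest in part on single mice: for *C1qb* it was 0.82 without KO 1, 0.77 without WT 1 and WT 2 together, and 1.76 without WT 4.

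With AAV-GFP, *C1qa* was at 6.43, 12.8 and 14.5 CPM in WT mice 1 to 3 and at 14.5, 13.04 and 42.2 CPM in KO mice 1 to 3. *C1qb* was at 6.44, 11.9 and 12.6 CPM in WT and at 15.6, 14.6 and 44.5 CPM in KO. *C1qc* was at 5.06, 10.1 and 9.33 CPM in WT and at 10.4, 9.41 and 29.4 CPM in KO. KO + AAV-GFP 3 was the highest library for each chain by a wide margin, and the genotypes overlapped for *C1qa* and *C1qc* but not for *C1qb*. The KO minus WT log2 difference was 1.05 ± 0.40 for *C1qa*, 1.27 ± 0.38 for *C1qb* and 1.01 ± 0.38 for *C1qc* (SE, n = 3 per group), with edgeR adjusted p-values of 0.457, 0.337 and 0.447. Without KO + AAV-GFP 3 these differences were 0.29, 0.54 and 0.27.

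With AAV-PRDM16, *C1qa* was at 3.94, 5.55 and 5.34 CPM in WT and at 9.90, 8.94 and 9.25 CPM in KO. *C1qb* was at 3.71, 4.51 and 4.85 CPM in WT and at 8.87, 8.92 and 8.64 CPM in KO. *C1qc* was at 3.67, 4.40 and 4.08 CPM in WT and at 7.64, 6.64 and 7.82 CPM in KO. These are the tightest groups of the series for the C1q chains, and every KO library lay above every WT library. The KO minus WT log2 difference was 0.92 ± 0.41 for *C1qa*, 1.02 ± 0.38 for *C1qb* and 0.86 ± 0.38 for *C1qc* (SE, n = 3 per group), with edgeR adjusted p-values of 0.345, 0.275 and 0.345, so that none was called.

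Averaged over both viruses, *C1qb* was higher in KO than in WT BAT by 1.14 ± 0.27 on the log2 scale (SE, n = 6 per genotype), with an edgeR adjusted p of 0.0497, the single call among the 9 genes in any comparison. The call lies at the edge of the threshold: the adjusted p ran from 0.0316 to 0.126 when each AAV library was left out in turn, and the difference was 0.77 without KO + AAV-GFP 3. *C1qa* differed by 0.99 ± 0.29 with an edgeR adjusted p of 0.0912, and *C1qc* by 0.93 ± 0.27 with 0.0882. Neither was called by edgeR, and both were called by DESeq2.

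AAV-PRDM16 BAT had lower C1q chains than AAV-GFP BAT in both genotypes, and for each chain every AAV-PRDM16 library lay below all AAV-GFP libraries of that genotype. The chains kept close to one another, so these are not separate observations, and how many other genes separated was not counted. In WT the AAV-PRDM16 minus AAV-GFP log2 difference was -1.18 ± 0.41 for *C1qa*, -1.25 ± 0.38 for *C1qb* and -1.01 ± 0.38 for *C1qc*, with edgeR adjusted p-values of 0.524, 0.477 and 0.564. In KO it was -1.31 ± 0.41, -1.50 ± 0.38 and -1.16 ± 0.38, with edgeR adjusted p-values of 0.397, 0.310 and 0.460, and it was -0.56, -0.78 and -0.43 without KO + AAV-GFP 3. Averaged over genotypes, *C1qa* was lower by -1.25 ± 0.29, *C1qb* by -1.37 ± 0.27 and *C1qc* by -1.08 ± 0.27 on the log2 scale (SE, n = 6 per virus). The edgeR adjusted p-values were 0.0741, 0.0543 and 0.0944, so that none was called. Leaving out single libraries, they ran from 0.0280 to 0.197 for *C1qa*, 0.0172 to 0.159 for *C1qb* and 0.0435 to 0.239 for *C1qc*. The limma-voom adjusted p-values were 0.334, 0.323 and 0.361, whereas DESeq2 called all 3 chains. The comparisons within the AAV cohort share libraries, so their values are given side by side and are not independent.

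The order of the group means was the same for *C1qa* and *C1qb*: KO untreated (24.1 ± 11.5 and 29.3 ± 19.5 CPM, SD), KO + AAV-GFP (23.2 ± 16.5 and 24.9 ± 17.0), WT untreated (12.7 ± 8.86 and 12.8 ± 9.98), WT + AAV-GFP (11.2 ± 4.25 and 10.3 ± 3.39), KO + AAV-PRDM16 (9.36 ± 0.492 and 8.81 ± 0.151) and WT + AAV-PRDM16 (4.94 ± 0.874 and 4.36 ± 0.585). The cohorts were normalised separately. In that order only the last pair of neighbours, the AAV-PRDM16 groups, did not overlap. Although the level of *C1qa* spanned 10.7-fold over the 22 libraries and that of *C1qb* 15.2-fold, the chains kept to one another: the ratio of *C1qb* to *C1qa* in CPM ran from 0.756 to 1.43, and that of *C1qc* to *C1qa* from 0.495 to 0.938.

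**Figure D2:**
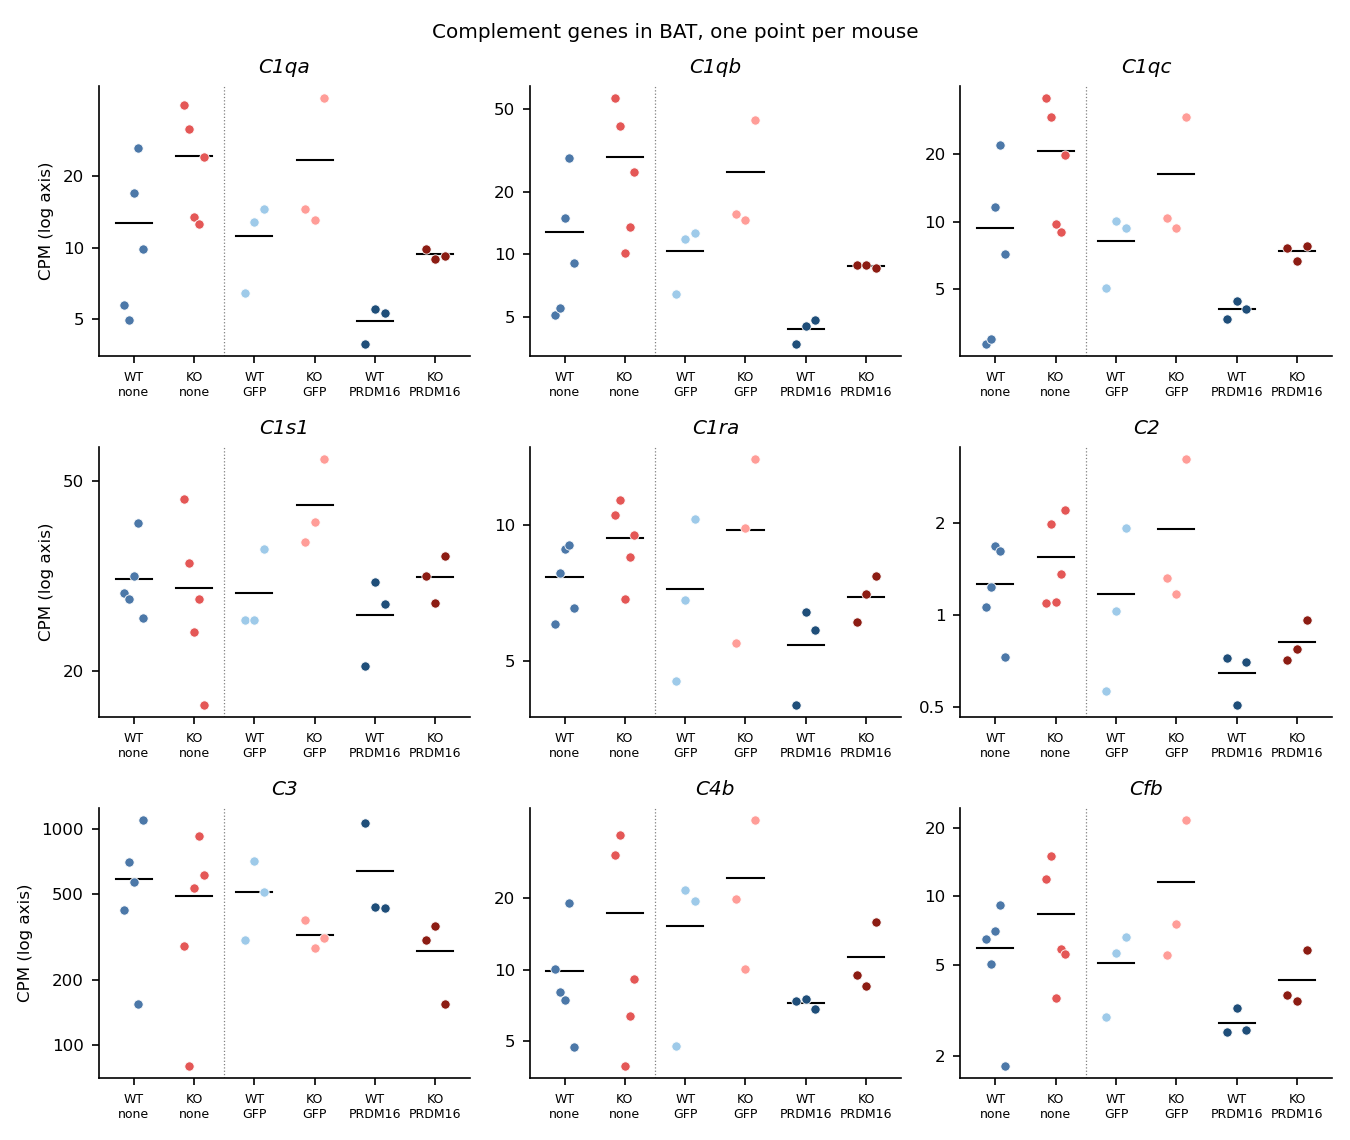
CPM of each of the 9 genes on a log axis, one point per mouse and a black line at the group mean, for untreated (none), AAV-GFP (GFP) and AAV-PRDM16 (PRDM16) BAT of WT and KO mice. For the C1q chains the WT AAV-PRDM16 points are lowest of the AAV groups, all at or below 5.55 CPM, and a single KO AAV-GFP mouse stands above 29 CPM in each panel.

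*C1ra* and *C1s1* encode the proteases that C1q carries. They lie near one another on chromosome 6 (GRCm38), *C1ra* at 124512405 to 124523443 on the plus strand and *C1s1* at 124530345 to 124542359 on the minus strand. In the untreated cohort *C1s1* was at 25.9 to 40.9 CPM in WT and 17.0 to 45.8 CPM in KO, with medians of 29.1 and 28.3 CPM, and *C1ra* was at 6.04 to 9.02 CPM in WT and 6.84 to 11.4 CPM in KO. Both genes overlapped between genotypes, with log2 differences of -0.06 ± 0.27 and 0.29 ± 0.22 (SE, n = 5 per group) and edgeR adjusted p-values of 0.905 and 0.480. Both varied less than the C1q chains: over the 22 libraries *C1s1* spanned 3.26-fold and *C1ra* 3.51-fold.

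In the AAV cohort *C1s1* was at 25.6, 25.6 and 36.1 CPM in WT + AAV-GFP mice 1 to 3, at 37.3, 41.1 and 55.5 CPM in KO + AAV-GFP, at 20.6, 30.7 and 27.6 CPM in WT + AAV-PRDM16 and at 31.7, 27.8 and 34.8 CPM in KO + AAV-PRDM16. KO + AAV-GFP lay above the other 3 groups in every mouse. The KO minus WT log2 difference was 0.62 ± 0.19 with AAV-GFP (edgeR adjusted p = 0.362) and 0.26 with AAV-PRDM16 (edgeR adjusted p = 0.597), and 0.44 ± 0.14 averaged over viruses, with an edgeR adjusted p of 0.106. AAV-PRDM16 minus AAV-GFP was -0.15 in WT and -0.51 ± 0.19 in KO, with edgeR adjusted p-values of 0.932 and 0.584. *C1ra* was at 4.52 to 10.3 CPM with AAV-GFP and 3.99 to 6.40 CPM with AAV-PRDM16 in WT, and at 5.48 to 14.0 and 6.09 to 7.70 CPM in KO, and all of these ranges overlapped. An annotated antisense gene, *Gm16567*, covers 11400 bases of *C1s1* and held at most 0.0149 CPM in any library. How reads that fit both genes were counted is not given.

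A window before *C1s1* is shown beside that of *C3*, both windows lying wholly outside the annotated genes. Here capitals mark GGNNNTTCC, a letter pattern of NF-kB, and TTGCNNAA, one of C/EBP factors, on either strand.
*C1s1*, chr6:124542360-124542609: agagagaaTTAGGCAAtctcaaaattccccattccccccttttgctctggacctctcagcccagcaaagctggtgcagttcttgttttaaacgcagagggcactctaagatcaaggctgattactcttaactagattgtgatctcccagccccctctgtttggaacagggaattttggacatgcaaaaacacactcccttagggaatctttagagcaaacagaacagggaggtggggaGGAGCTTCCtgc
*C3*, chr17:57228137-57228386: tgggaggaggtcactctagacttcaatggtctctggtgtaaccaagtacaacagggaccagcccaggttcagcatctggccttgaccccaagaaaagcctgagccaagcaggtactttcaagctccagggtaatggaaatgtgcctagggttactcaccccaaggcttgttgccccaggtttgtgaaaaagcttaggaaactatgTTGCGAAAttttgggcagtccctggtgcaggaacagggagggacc
The windows are from RefSeq (GRCm38.p6, minus strand). The NF-kB letters lay 12 bases before this start of *C1s1* and the C/EBP letters 242 bases before it on the other strand, and the C/EBP letters lay 45 bases before the start of *C3*. Another RefSeq start of *C1s1* lies inside the annotated gene. The NF-kB letters lay 50 bases before that start, and its window held no C/EBP letters. Of the 32851 windows, 15.7% held the NF-kB letters and 9.56% the C/EBP letters. The same windows were searched for GAAANNGAA, an interferon-response core held by 7.13% of windows, and TTCNNNGAA, a STAT pattern held by 7.02%, without a match in any window of the 5 genes, and *C1ra* had no match to any of the 5 patterns.

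*C4b*, *C2* and *Cfb* encode the parts of the enzymes that cleave C3: C4 and C2 those of the classical pathway, factor B that of the alternative pathway. The 3 genes lie in the complement cluster of the major histocompatibility region on chromosome 17 (GRCm38, minus strand), *C4b* at 34728380 to 34743882, *Cfb* at 34856374 to 34862518 and *C2* at 34862604 to 34898265. In the untreated cohort *C4b* was at 10.1, 8.03, 7.43, 19.0 and 4.71 CPM in WT and at 30.5, 37.0, 3.92, 6.39 and 9.12 CPM in the libraries labelled KO. *Cfb* was at 6.497, 5.03, 7.08, 9.12 and 1.80 CPM in WT and at 12.0, 15.04, 3.57, 5.88 and 5.57 CPM in KO. For both, KO 1 and KO 2 were the highest libraries, and none of the other 3 KO libraries exceeded the WT range. The KO minus WT log2 difference was 0.82 ± 0.59 for *C4b*, 0.51 ± 0.46 for *Cfb* and 0.29 ± 0.37 for *C2*, with edgeR adjusted p-values of 0.449, 0.539 and 0.667. Without KO 2 it was 0.35 for *C4b* and 0.21 for *Cfb*. Where a covariate marked the libraries that held Y-linked transcripts, it was 1.24 and 0.80 (edgeR adjusted p = 0.576 for both).

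In AAV-treated BAT, *Cfb* was at 2.96, 5.67 and 6.62 CPM in WT + AAV-GFP, at 5.54, 7.54 and 21.6 CPM in KO + AAV-GFP, at 2.55, 3.24 and 2.59 CPM in WT + AAV-PRDM16 and at 3.69, 3.47 and 5.80 CPM in KO + AAV-PRDM16. The KO values lay above the WT values with AAV-PRDM16 and overlapped them with AAV-GFP. Averaged over viruses the KO minus WT log2 difference was 0.90 ± 0.32 (edgeR adjusted p = 0.147), and averaged over genotypes AAV-PRDM16 minus AAV-GFP was -1.15 ± 0.32 (edgeR adjusted p = 0.140). DESeq2 called *Cfb* in both of these comparisons. The virus difference in KO mice was -1.43 ± 0.45, and -0.61 without KO + AAV-GFP 3.

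*C4b* showed the same order with more spread. It was at 4.78, 21.7 and 19.5 CPM in WT + AAV-GFP, at 20.0, 10.1 and 42.7 CPM in KO + AAV-GFP, at 7.36, 7.52 and 6.82 CPM in WT + AAV-PRDM16, and 9.51, 8.53 and 15.8 CPM in KO + AAV-PRDM16. The KO libraries lay above the WT libraries with AAV-PRDM16 and not with AAV-GFP, where the log2 difference was 0.66 with all mice and -0.04 without KO + AAV-GFP 3. Averaged over genotypes, AAV-PRDM16 minus AAV-GFP was -1.10 ± 0.38 with an edgeR adjusted p of 0.292. *C4a*, the neighbouring copy of *C4b*, is nearly identical in sequence, so that reads may have been divided between the genes. The ratio of *C4b* to *C4a* CPM ran from 3.58 to 30.6, and the log2 difference of *C4a* in the same comparison was -0.28 ± 0.19 with an edgeR adjusted p of 0.792.

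*C2* was the lowest of the 9 genes, at 0.565 to 1.93 CPM in WT + AAV-GFP, at 1.18 to 3.24 CPM in KO + AAV-GFP, 0.509 to 0.725 CPM in WT + AAV-PRDM16 and 0.714 to 0.969 CPM in KO + AAV-PRDM16. All KO mice with AAV-PRDM16 lay below all KO mice with AAV-GFP, and the log2 difference averaged over genotypes was -1.05 ± 0.33 with an edgeR adjusted p of 0.222. The KO minus WT difference averaged over viruses was 0.52 (edgeR adjusted p = 0.440). *C2* overlaps *Zbtb12*, on the opposite strand, over 17385 bases, and *Zbtb12* was at 1.34 to 4.93 CPM. Whether the counting used strand is not given in the sources used here, so some reads of *C2* may be those of *Zbtb12*. A readthrough gene, *Gm20547*, shares 6107 bases with *Cfb* and 19439 bases with *C2* on the same strand, and it held at most 0.194 CPM. How reads that fit more than 1 gene were counted is not given. The counts of *C2* and *Cfb* may therefore be too low, and the low count of *Gm20547* does not settle this.

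*C3* encodes the component on which all pathways converge, and it did not follow the others. In the untreated cohort it was at 423, 705, 573, 155 and 1100.2 CPM in WT and at 289, 80.2, 536, 932 and 617 CPM in the libraries labelled KO. WT 4, KO 1 and KO 2, the untreated libraries with the highest *C1qb*, were the 3 with the lowest *C3*, and the genotypes overlapped, with a log2 difference of -0.27 ± 0.58 and an edgeR adjusted p of 0.809. With the same covariate the difference was -1.11 (edgeR adjusted p = 0.576). With AAV-GFP, *C3* was at 306, 712 and 513 CPM in WT and at 378, 281 and 313 CPM in KO. With AAV-PRDM16 it was at 1067, 435 and 431 CPM in WT and at 306, 358 and 155 CPM in KO, so that each KO library lay below each WT library.

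The KO minus WT log2 difference of *C3* was -0.66 ± 0.40 with AAV-GFP and -1.24 ± 0.40 with AAV-PRDM16, with edgeR adjusted p-values of 0.684 and 0.220, and -0.67 with AAV-PRDM16 when WT + AAV-PRDM16 1 was left out. Averaged over viruses it was -0.95 ± 0.28, with an edgeR adjusted p of 0.0994, so that *C3* was not called. AAV-PRDM16 minus AAV-GFP was 0.34 in WT, -0.25 in KO and 0.04 ± 0.28 averaged, with edgeR adjusted p-values of 0.918, 0.9999 and 0.993. The plot of changes by genotype and by virus shows *C3* on the other side of 0 from the C1q chains for genotype and near 0 for virus. *C3* lies at 57203970 to 57228136 on the minus strand of chromosome 17 (GRCm38).

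**Figure D3:**
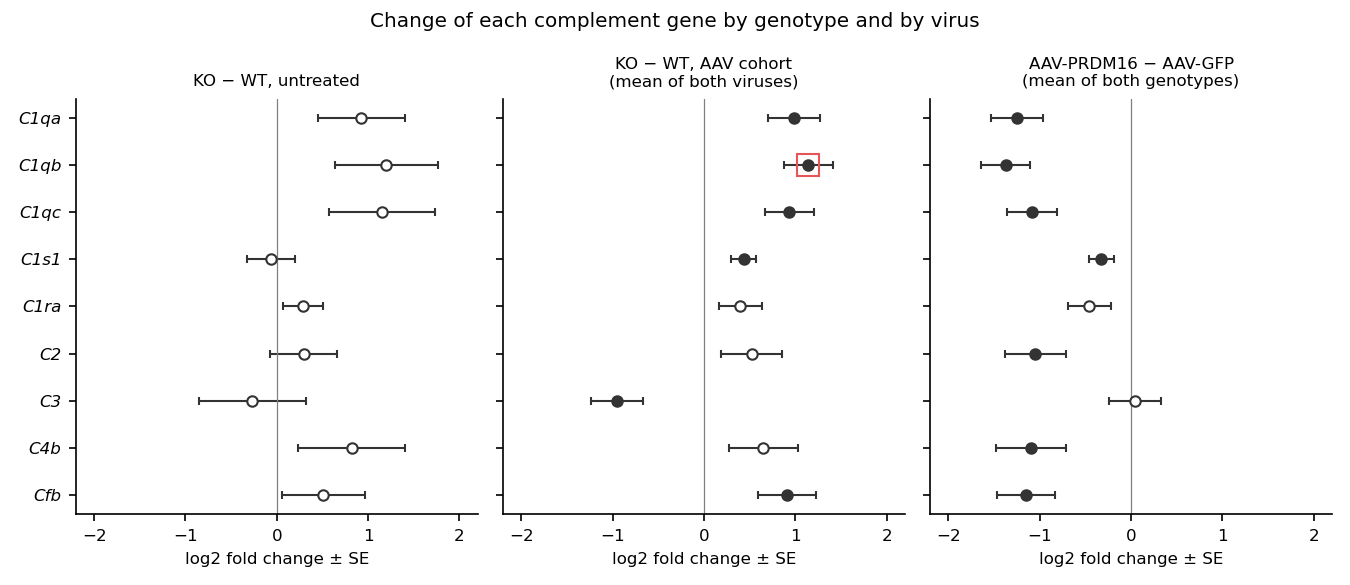
Log2 fold change with its SE for each of the 9 genes, KO minus WT in untreated BAT (n = 5 per group), KO minus WT averaged over both viruses and AAV-PRDM16 minus AAV-GFP averaged over both genotypes (n = 6 per side). Filled points have an unadjusted edgeR p under 0.05 and the red square marks the adjusted call of *C1qb*; 7 points are filled for virus, 6 for genotype and 0 in untreated BAT.

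Counted over the 9 genes, edgeR called 0 in untreated BAT, with 0 at an unadjusted p under 0.05 where 15.9% of the 17869 genes tested reached that level. DESeq2 and limma-voom also called 0, as they did over all genes (0%). By the study's looser threshold of 2-fold at an adjusted p of 0.5, *C1qb* and *C1qc* passed, against 10.8% of all genes. That threshold was applied here to the edgeR fit, in which 1925 genes passed it, whereas the study used iDEP and reported fewer. The median log2 difference of the 9 genes was 0.51, against 0.04 over all genes, and both genes passing the loose threshold ceased to do so without WT 1 and WT 2.

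With AAV-GFP, edgeR called 0 of the 9 genes between genotypes and 0.0529% of 18899 genes. At an unadjusted p under 0.05, 5 were higher in KO (*C1qa*, *C1qb*, *C1qc*, *C1s1* and *Cfb*) against 9.18% of all genes in either direction, and without KO + AAV-GFP 3 this number was 2. DESeq2 called 1, *C1qb*, against 1.29% of all genes, and limma-voom called 0 against 0.0847%. With AAV-PRDM16, edgeR called 0 against 0.0476%. At an unadjusted p under 0.05, 3 were higher (the C1q chains) and 1 lower (*C3*) against 13.7%, and without WT + AAV-PRDM16 1 the number was 0. DESeq2 called 0 against 3.28% and limma-voom 0 against 0.0423%.

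Averaged over viruses, edgeR called 1 of the 9 genes between genotypes against 2.18% of all genes. At an unadjusted p under 0.05, 5 were higher in KO and 1 lower, against 18.3%. DESeq2 called 5 (*C1qa*, *C1qb*, *C1qc*, *C1s1* and *Cfb*) against 8.38% of all genes, and limma-voom called 0 against 2.28%. The median log2 difference was 0.65 for the 9 genes and 0.01 for all genes.

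Between viruses in WT, edgeR, DESeq2 and limma-voom called 0 of the 9 genes, against 0%, 0.804% and 0% of all genes, and 3 were lower with AAV-PRDM16 at an unadjusted p under 0.05 against 7.29%. Without WT + AAV-GFP 3 this number was 1, and without KO + AAV-GFP 3 it was 6. In KO, edgeR and limma-voom called 0 against 0% each, DESeq2 called 2 (*C1qa* and *C1qb*) against 1.41%, and 6 were lower at an unadjusted p under 0.05 against 6.41%, of which 1 was left without KO + AAV-GFP 3. Averaged over genotypes, edgeR called 0 against 0.037%, limma-voom 0 against 0%, and DESeq2 4 (*C1qa*, *C1qb*, *C1qc* and *Cfb*) against 3.19%. At an unadjusted p under 0.05, 7 were lower against 9.09%. The median was -1.08 for the 9 genes and -0.01 for all genes.

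The genotype by virus interaction asks whether the virus difference differed between KO and WT. It was negative for each of the 9 genes, from -0.58 for *C3* to -0.02 for *C4b* on the log2 scale, with an edgeR adjusted p of 0.9998 for each. At an unadjusted p under 0.05 edgeR found 0 against 3.19% of all genes, and edgeR, DESeq2 and limma-voom called 0 against 0%, 0.00529% and 0%. A difference between genotypes in the response to AAV-PRDM16 was therefore not detectable for these genes with 3 mice per group, and the sign turned for 7 of them without KO + AAV-GFP 3.

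Another 41 complement genes were examined, from lists of the lectin pathway, terminal pathway, soluble and membrane regulators, receptors and relatives of the 9. In each cohort 27 passed the filter on low counts, and 7 (*Mbl1*, *Mbl2*, *Fcnb*, *Colec10*, *C8b*, *Cfi* and *C4bp*) had 0 counts in every library, where 3 counts would make 0.0184 to 0.0542 CPM. *Hc*, the gene of C5, reached at most 0.0400 CPM. Of 7 terminal pathway genes only *C7* and *C8g* passed the filter, and of 8 lectin pathway genes *Masp1*, *Masp2*, *Fcna* and *Colec11* did.

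Averaged over viruses, 2 of the 27 were called by edgeR, each higher in KO, against 2.18% of all genes. *C3ar1*, the receptor for the C3a fragment, was at 1.14, 2.13 and 2.31 CPM in WT + AAV-GFP, at 4.22, 2.91 and 7.44 CPM in KO + AAV-GFP, at 0.877, 1.27 and 1.06 CPM in WT + AAV-PRDM16 and 2.95, 1.94 and 2.27 CPM in KO + AAV-PRDM16. The genotypes did not overlap under either virus, and the averaged log2 difference was 1.27 ± 0.25 with an edgeR adjusted p of 0.0297. *Itgam*, a subunit of complement receptor 3 on myeloid cells, was higher by 1.70 ± 0.37 (edgeR adjusted p = 0.0379), each KO library lying above each WT library. In untreated BAT the log2 differences of these genes were 0.74 ± 0.89 and 0.58 ± 0.96 (SE, n = 5 per group), with edgeR adjusted p-values of 0.653 and 0.747.

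At an unadjusted p under 0.05, 9 of the 27 were higher and 2 lower in KO averaged over viruses, against 18.3% of all genes in either direction. The lower genes were *C8g*, a lipocalin chain of C8, by -0.56 ± 0.15, and *C1rl*, by -0.49 ± 0.15, with edgeR adjusted p-values of 0.0683 and 0.106. Between viruses 7 were lower with AAV-PRDM16 and 0 higher, averaged over genotypes, against 9.09% of all genes. They included *Itgb2*, the integrin chain that pairs with *Itgam*, at -1.89 ± 0.39, *Cfp*, the gene of properdin, which stabilises the alternative convertase, at -0.90 ± 0.27, and *C1rb*, a copy of *C1ra*, at -0.73 ± 0.18, with edgeR adjusted p-values of 0.0586, 0.196 and 0.101. *Serping1* was at 0.62 ± 0.19 for genotype and -0.51 ± 0.19 for virus (edgeR adjusted p = 0.106 and 0.367). *C1s2*, the copy of *C1s1*, differed by -0.12 ± 0.43 and 0.61 ± 0.44 (edgeR adjusted p = 0.925 and 0.815).

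*Cfd* was called in neither comparison. It was at 69.7 to 229 CPM across the AAV libraries, with log2 differences of -0.10 ± 0.33 for genotype and -0.13 ± 0.33 for virus and edgeR adjusted p-values of 0.911 and 0.981. In untreated BAT it varied far more, from 61.2 to 1998 CPM in WT and from 250.2 to 3768 CPM in the libraries labelled KO, the genotypes overlapping.

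**Figure D4:**
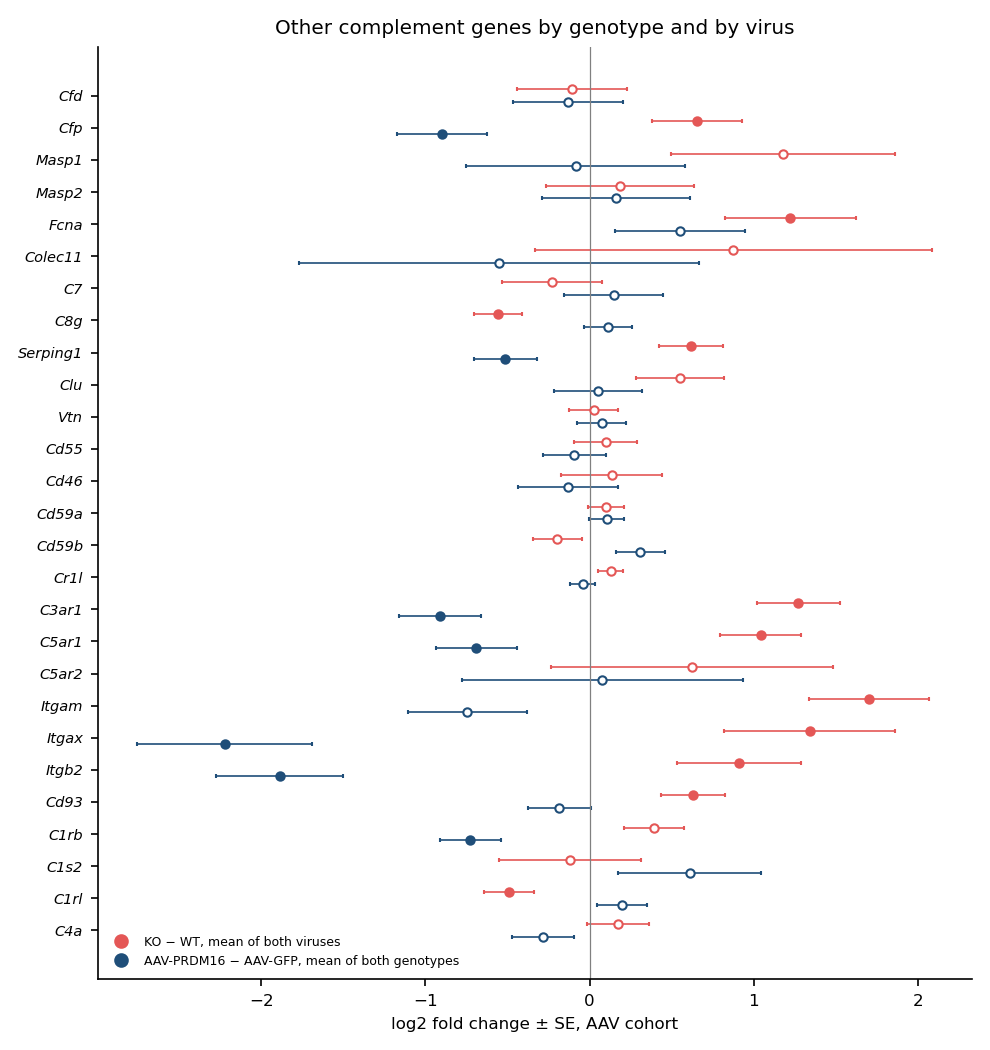
Log2 fold change with its SE for the 27 other complement genes tested in the AAV cohort, KO minus WT averaged over viruses in red and AAV-PRDM16 minus AAV-GFP averaged over genotypes in blue, filled where the unadjusted edgeR p is under 0.05. Red filled points lie to the right for 9 genes and to the left for 2, and all 7 blue filled points lie to the left.

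Markers of macrophages moved with the C1q chains. The summed CPM of 12 macrophage markers was 56.7 to 115 in WT + AAV-GFP, 138 to 313 in KO + AAV-GFP, 44.0 to 53.3 in WT + AAV-PRDM16 and 77.3 to 93.8 in KO + AAV-PRDM16, and none of the 12 was at 0 in every library. In untreated BAT it was 48.6 to 329 in WT and 62.6 to 409 in KO. Of the 12 markers, 8 were higher in KO at an unadjusted p under 0.05 averaged over viruses against 18.3% of all genes, and 3 of them were called by edgeR against 2.18%. At the same unadjusted level 7 were lower with AAV-PRDM16 averaged over genotypes against 9.09%. The part of macrophage content in the C1q differences was not tested.

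Set against these markers, the C1q chains varied little in the AAV cohort. The sum of *C1qa*, *C1qb* and *C1qc* was 0.313 ± 0.00637 of the macrophage marker sum in WT + AAV-GFP, 0.305 ± 0.0567 in KO + AAV-GFP, 0.273 ± 0.0169 in WT + AAV-PRDM16 and 0.291 ± 0.0228 in KO + AAV-PRDM16 (SD, n = 3). In untreated BAT the ratio was 0.331 ± 0.0956 in WT and 0.509 ± 0.183 in KO (SD, n = 5). The ratio of the untreated libraries labelled KO thus had the highest mean and the widest spread.

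Other cell type lists are given for the same averaged comparisons, in which 18.3% of all genes for genotype and 9.09% for virus had an unadjusted p under 0.05. The summed CPM of 8 T cell markers was 1.72 to 21.8 in WT + AAV-GFP, 8.05 to 30.1 in KO + AAV-GFP and 0.852 to 2.66 across the AAV-PRDM16 libraries, and all 8 were lower with AAV-PRDM16 at an unadjusted p under 0.05 averaged over genotypes, while 0 differed by genotype. The sum of 12 interferon-stimulated genes was 126 to 251 CPM in WT + AAV-GFP, 151 to 319 in KO + AAV-GFP, 117 to 123 in WT + AAV-PRDM16 and 128 to 165 in KO + AAV-PRDM16. Of 10 fibroblast markers 8 were higher in KO averaged over viruses at an unadjusted p under 0.05, and 2 were lower with AAV-PRDM16. Of 10 brown fat markers 7 were lower in KO averaged over viruses at that level. Of 7 white fat markers 3 were tested and 2 were higher in KO at that level, and their sum was 26.5 to 42.1 CPM in WT and 85.9 to 143 CPM in KO with AAV-GFP, and 10.2 to 59.0 CPM in WT and 50.8 to 254 CPM in KO with AAV-PRDM16. Of 6 B cell markers 3 were lower with AAV-PRDM16 at that level, and their sum was 18.1 to 42.1 CPM in WT and 10.5 to 31.8 CPM in KO with AAV-GFP, and 4.64 to 25.9 CPM in WT and 6.49 to 9.06 CPM in KO with AAV-PRDM16. In the untreated cohort skeletal muscle markers summed to between 7.96 and 6547 CPM. The highest sums were those of KO 2 (6547 CPM) and KO 1 (5731 CPM), which were also highest for the C1q chains, *C4b* and *Cfb*. WT 3 followed at 3217 CPM and KO 5 at 1154 CPM, and no other untreated library exceeded 167 CPM. WT 4, with the next highest *C1qb*, was at 14.7 CPM. The part of any of these lists in the complement differences was not tested.

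**Figure D5:**
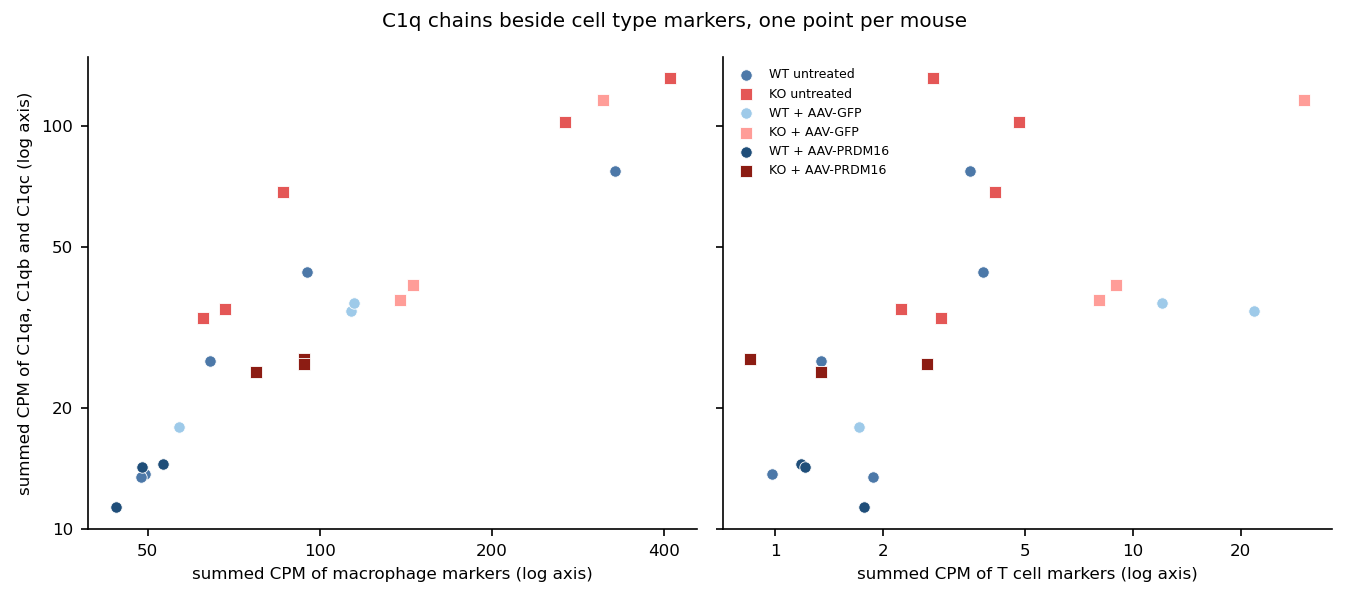
Summed CPM of *C1qa*, *C1qb* and *C1qc* against the summed CPM of 12 macrophage markers (left) and 8 T cell markers (right), one point per mouse, both axes logarithmic, WT as circles and KO as squares. On the left the AAV points rise together from WT + AAV-PRDM16 (C1q sum 11.3 to 14.5) to KO + AAV-GFP (37.0 to 116).

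Across the AAV libraries the 9 genes fell into a C1q-like group and *C3*. Over the 12 AAV libraries Pearson's r of log2 CPM was 0.99 among the C1q chains, 0.85 to 0.96 between them and *C4b*, *C2* or *Cfb*, and 0.79 to 0.86 between them and *C1ra* or *C1s1*, whereas *C3* had r of -0.56 to -0.09 with the other 8. Over the 10 untreated libraries these were 0.980 to 0.996, 0.49 to 0.75, 0.33 to 0.88 and -0.86 to -0.47. There *C1s1* had r of 0.33 to 0.42 with the C1q chains, 0.35 with *C1ra*, -0.13 with *C2* and 0.65 with *C4b*. The libraries differ in genotype and virus, which all genes share, so these values are a description.

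The 5 genes most like *C1qa* over the 12 AAV libraries were *Clec12a* (r = 0.98), *Ctsh* (0.98), *H2-D1* (0.98), *Mpeg1* (0.98) and *Tifab* (0.98), with r over the 10 untreated libraries of 0.74, 0.96, 0.73, 0.75 and 0.60. Those most like *Cfb* were *Gas7* (r = 0.98), *Cyba* (0.97), *Tmem176b* (0.97), *Serping1* (0.96) and *Unc93b1* (0.96), with 0.52, 0.56, 0.49, 0.58 and 0.56 over the untreated libraries. Those most like *C3* were *Tst* (r = 0.96), *Epn1* (0.95), *Fra10ac1* (0.94), *Acot1* (0.94) and *Sidt2* (0.93), with 0.79, 0.28, 0.02, 0.94 and 0.73 over the untreated libraries. No gene is shared between the 3 lists. *Acot1*, which encodes an acyl-CoA thioesterase, kept a high r with *C3* in both cohorts, as *Ctsh*, the gene of the lysosomal protease cathepsin H, did with *C1qa*.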

How the data were processed

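The authors deposited whole-number read counts per Ensembl gene, in one table for the 10 untreated and one for the 12 AAV libraries, each library from 1 mouse. Per the labels, total RNA was made into SureSelect XT HS2 mRNA libraries, and the submitters' processing notes name bcl2fastq 2.20, Trimmomatic 0.36, HISAT2 and GRCm38.p6. The counting tool, its annotation, strand setting and use of molecular identifiers are not given in the sources used here.

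Groups were taken from the labels. Gene symbols came from GENCODE M21, which matched 55227 of 55487 identifiers. Counts were filtered with filterByExpr, scaled by TMM and tested with edgeR 4.0.16 (glmQLFit and glmQLFTest, R 4.3.3) across 17869 untreated and 18899 AAV genes. Benjamini-Hochberg adjustment ran over all genes tested. DESeq2 1.42.0, limma-voom (limma 3.58.1), RLE scaling, no filter, a replicate block, an FDR of 0.1 and leaving out libraries were alternatives. Levels are CPM on the effective library size, and log2 CPM for correlations used a prior count of 2. The scripts were tested on simulated counts. Depth was high, so that the 9 genes had at least 46 counts in each library. The p-values set a difference between groups against the spread between mice within groups, estimated over all groups of a cohort together. Replicate numbers did not pair the libraries. Promoter windows are from RefSeq. Figures were drawn with matplotlib 3.10.9.

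The 9 genes and all gene lists were chosen with earlier results of these data known. The text names all 9, other complement genes called at an adjusted p under 0.05 in any comparison, fixed relatives (*Cfd*, *Serping1*, *C3ar1*, *Hc*, *C4a*, *C1rb* and *C1s2*) and the 5 genes most like *C1qa*, *C3* and *Cfb*. Some further complement genes (*Itgb2*, *Cfp*, *C8g*, *C1rl* and *Cd59a*) were named after their values were seen. A gene left out of the complement lists is not reported here.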

Additional observations from a re-analysis of the deposited data

How the results depend on the processing

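The number of the 9 genes called changed with the tool and the libraries. For KO against WT averaged over viruses, edgeR called 1, DESeq2 5, limma-voom 0, an FDR of 0.1 gave 4 and no filter on low counts gave 0, with 0 to 1 when each AAV library was left out. The call of *C1qb* was lost without any AAV library other than KO + AAV-GFP 1 and KO + AAV-GFP 3. For AAV-PRDM16 against AAV-GFP averaged over genotypes, edgeR called 0, DESeq2 4, an FDR of 0.1 gave 3 and no filter gave 1, with 0 to 3 when libraries were left out (3 without WT + AAV-GFP 1, 2 without KO + AAV-GFP 1). DESeq2 called 2 for virus in KO and 1 for genotype with AAV-GFP. In untreated BAT the 2 genes past 2-fold at an adjusted p of 0.5 became 0 when a covariate marked libraries with Y-linked transcripts and 0 without WT 1 and WT 2 together, with 0 to 4 when single libraries were left out. The cause of these changes was not tested.

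Differences near 0 turned sign. Leaving out single libraries, the interaction ran from -0.42 to 0.63 for *C1qa*, -0.53 to 0.47 for *C1qb*, -0.42 to 0.58 for *C1qc*, -0.43 to 0.27 for *C1ra*, -0.92 to 0.26 for *C2*, -0.39 to 0.67 for *C4b* and -0.90 to 0.26 for *Cfb*. The virus difference ran from -0.24 to 0.20 for *C3* averaged over genotypes (-0.022 with limma-voom), -0.49 to 0.037 for *C3* in KO, -0.23 to 0.65 for *C3* in WT and -0.27 to 0.037 for *C1s1* in WT. The genotype difference ran from -0.64 to 0.079 for *C3* and -0.27 to 0.081 for *C1s1* in untreated BAT (0.017 for *C1s1* with the Y-linked covariate) and from -0.035 to 1.03 for *C4b* with AAV-GFP.

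With the replicate number as a block the difference of *C3* between viruses was -0.027 and *C1qb* kept its call between genotypes (edgeR adjusted p = 0.0411). Same-numbered libraries correlated above 0.1 in 1 of 5 untreated and 2 of 18 AAV pairs, and 1 of 10 and 3 of 12 libraries correlated best with a library of their own number, so the replicate block is given only here.

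The counts at an unadjusted p under 0.05, a result added after seeing the data, ran over single left-out libraries from 0 to 3 in untreated BAT, 2 to 7 and 0 to 4 for genotype with AAV-GFP and AAV-PRDM16, 1 to 6 and 1 to 7 for virus in WT and KO, 6 to 8 for both averaged comparisons, and were 0 throughout for the interaction. Each of the 9 genes had at least 46 counts in each library.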
